A study of Mus musculus with 28 samples.

Results

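Monoclonal WT5 cells were compared with all 5 subclones that had been grown from single sorted cells of WT5, to ask which genes had shifted in the same direction in every subclone. The comparison took in 24 of the 28 libraries of the series, 4 of WT5 and 4 of each subclone, and the mean of the 4 libraries of a subclone was used as 1 value, so that 5 subclone means stood against 4 WT5 libraries. All lines are mIMCD-3 cells, derived from inner medullary collecting duct epithelium of a mouse carrying SV40 early-region genes, and none of the lines compared had been edited or treated. Polyclonal WT cells, from which WT5 had been isolated as a single cell, account for the other 4 libraries and are given only as values set beside a gene. WT5 is a single clone, so its 4 libraries are repeats of that clone, while the subclones were expanded for about 6 weeks after sorting. WT5 was sequenced as 150 bp paired-end reads and polyclonal WT cells as 50 bp single-end reads. Both are in 1 table, but they were sequenced at different times, so polyclonal values differ from WT5 in read type and time as well. The subclones come from a second table, and their read length and date were not stated in the sources used here. The table and the step from parent to subclone therefore cannot be told apart in any value below.

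The inner medullary collecting duct is a polarised epithelium that takes up water and sodium under hormonal control and works at low oxygen tension, where glycolysis supplies much of the energy. Hypoxia-inducible factors raise the genes of glucose uptake, glycolysis, lactate export and collagen hydroxylation when oxygen falls. Cultured tubule cells also carry a variable mesenchymal programme, with vimentin, fibronectin and integrins, which is tied to growth factor signalling through ERK and to the mechanosensitive coactivators YAP and TAZ. Clones grown from 1 cell can start from different states of such programmes.

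Values were TPM, a length-scaled share of the transcripts in a library, which makes levels of different genes comparable per length. As each library is scaled to the same sum, TPM keeps no read depth, and no counting error can be given. Differences are on a log2 scale, as the difference of z-scored log2(TPM) between the subclone means and WT5 multiplied by the mean SD of log2(TPM), and are given with their SE and a Benjamini-Hochberg adjusted p-value of limma over all genes fitted. A gene was called where the adjusted p-value was below 0.01 and the difference was above 1 in size, which is 2-fold. The p-values measure the spread among subclone means and among libraries of the WT5 clone. Replicate libraries correlated with r from 0.987 to 0.994. Protein-coding nuclear genes made up 90.6 to 91.8% of TPM in WT5 and 81.8 to 88.1% in the subclones, pseudogenes 2.63 to 2.87% and 4.51 to 6.92%, and mitochondrially encoded genes 4.21 to 5.30% and 5.60 to 10.2%. The SD of log2(TPM) was 3.05 to 3.08 in WT5 and 2.89 to 3.04 in the subclones. Their part in the results below was not tested, beyond the scalings given beside them.

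The lines carried the marks of collecting duct epithelium only in part. Epithelial markers summed to 3389 to 3456 TPM in WT5 libraries and 2063 to 2608 TPM in subclone libraries, and none of the 6 markers was at 0. Of 13 markers of collecting duct principal cells, Pax8 (174 ± 9.5 TPM in WT5 and 176 ± 8.01 TPM in the subclones, SD over 4 libraries and 5 means) and Hoxb7 (55.3 ± 1.72 and 55.2 ± 6.67 TPM) were present, while the water channel Aqp2 was listed at 0 in every library. Pax2 was also present, at means of 28.9 and 36.5 TPM, as was Tfcp2l1, at 10.2 and 12.5 TPM. The sodium channel subunit gene Scnn1g was at 4.85 and 7.76 TPM and Hsd11b2 at 4.41 and 4.94 TPM. Of the 13 markers, 6 were under 1 TPM in every WT5 library and 6 in every subclone library. These included Aqp2, Avpr2, Scnn1b, Gata3 and Elf5. Of 5 proximal tubule markers, Slc34a1 and Hnf4a were at 0 in all 24 libraries, and Slc5a2 was at means of 0.02 and 0.0095 TPM. Lrp2 was higher in the subclones, at 3.71 and 7.02 TPM (0.88, adjusted p = 0.00101 by limma), and Cubn lower, at 0.2875 and 0.1875 TPM (-0.79, adjusted p = 0.00113). Markers of fibroblasts summed to 0.60 to 2.12 TPM in WT5 and 0.33 to 1.34 TPM in the subclones, with Col1a2, Col3a1 and Lum at 0 in all 24 libraries. Leukocyte markers summed to 2.41 to 3.40 and 1.52 to 4.68 TPM, almost all of it Cd68, with Adgre1 and Cd3e at 0. Endothelial markers reached at most 0.09 TPM.

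Shared shifts were few. Of 12100 protein-coding nuclear genes with TPM above 0 in all 24 libraries, 65 were called higher in the subclones (0.537%) and 130 lower (1.07%), together 1.61%. Among all genes tested, 90.3% differed by less than 1.5-fold. With any size of difference, 1375 genes were higher (11.4%) and 1458 lower (12%) at an adjusted p-value below 0.01. The stricter cut-off of a z-score difference above 1 in size, which is 7.94-fold here, was passed by 1 gene, Usp50 (0.00826% of those tested). The split between directions depended on the scaling. Without z-scores 74 genes were higher and 135 lower, and with TPM rescaled to the sum of protein-coding nuclear genes 109 were higher and 93 lower, so that higher genes made up 33.3% of calls with z-scores, 35.4% without and 54.0% after rescaling. In all 3 scalings 61 of the 65 higher and 90 of the 130 lower genes were called in the same direction, and none of the 195 changed sign. The shares at any size (11.4% and 12%) belong to the z-scored limma fit and were not counted for other scalings or tests. The median difference of all genes tested was -0.02 with z-scores, -0.09 without and 0.01 after rescaling. No called gene could be silent on one side, since every library had to have TPM above 0, and a further 3871 protein-coding nuclear genes above 0 in some but not all libraries were not tested in this way. None of these combined 0 TPM throughout WT5 with 1 TPM or more in all 20 subclone libraries, or the reverse.

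**Figure D1:**
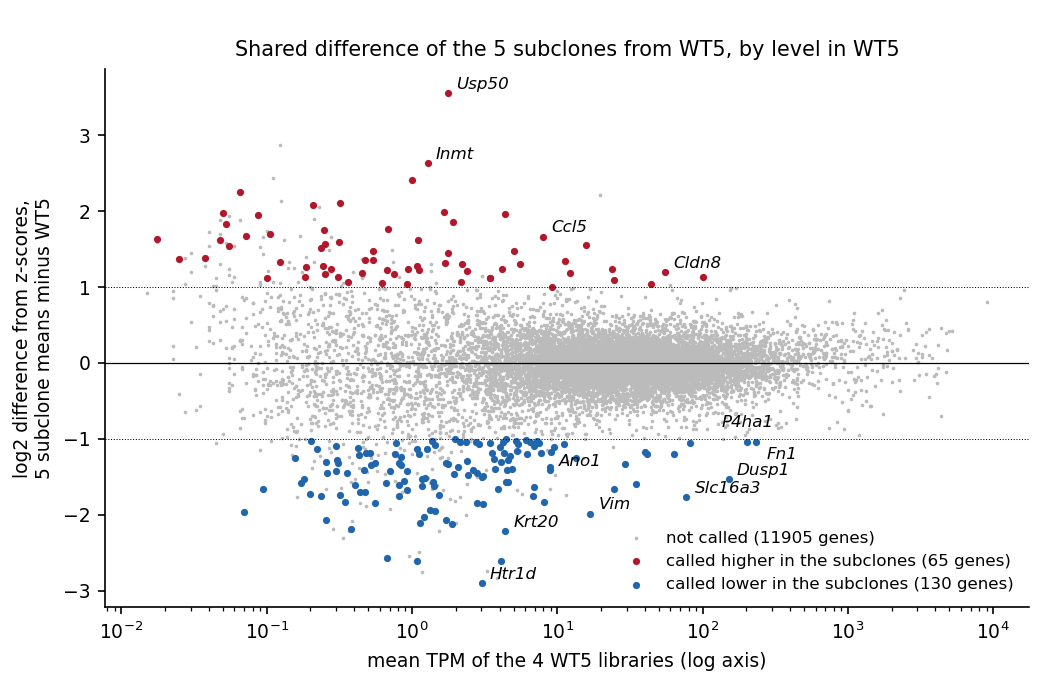
Each point is 1 of the 12100 protein-coding nuclear genes tested, with the mean TPM of the 4 WT5 libraries on a log axis and the log2 difference from z-scores of the 5 subclone means from WT5. The 65 higher genes (red) and the 130 lower genes (blue) lie mostly below 10 TPM, while Slc16a3, Dusp1, P4ha1 and Fn1 stand out among the abundant genes that fell.

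The called shifts were spread over all 5 subclones. The median difference of the 65 higher genes was 1.37, 1.18, 1.48, 1.55 and 1.36 in subclones 1 to 5, and that of the 130 lower genes was -1.39, -1.30, -1.42, -1.5 and -1.29. Every subclone was past 2-fold for 26 of the higher and 44 of the lower genes, and at least 4 of the 5 were for 51 and 97. Each subclone alone passed an adjusted p-value of 0.01 against WT5, by limma over the libraries, for 44 of the higher and 69 of the lower genes. All 20 subclone libraries lay above all 4 WT5 libraries in TPM for 43 of the 65 higher genes, where 2.98% of all genes tested did, and below them for 86 of the 130 lower genes, where 13.7% did (16.7% in either direction). These counts follow from the choice of called genes and are given as a description. The subclones also differed among themselves in 89 of the 195 genes (adjusted p-value below 0.01, limma F test over the 20 subclone libraries), where 27.8% of all genes tested did so. The root mean square log2 difference between WT5 and a subclone ran from 0.428 (subclone 2) to 0.529 (subclone 4), and that between pairs of subclones from 0.341 to 0.460. Many called genes were scarce: 24 of the higher and 44 of the lower genes stayed under 1 TPM in both groups, and 14 of each reached 10 TPM in the group where they were higher.

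Genes of glycolysis and the hypoxia response were lower in the subclones. Of 35 tested members, 31 had a difference below 0, 23 were lower and 1 was higher at an adjusted p-value below 0.01 (12% and 11.4% of all genes tested), and 3 were called, all lower. The median difference of the list was -0.55, against -0.02 over all genes tested, and it was -0.45, -0.47, -0.47, -0.42 and -0.71 in subclones 1 to 5. Without z-scores the median was -0.73 and after rescaling -0.63, with 23 members lower in both, and with the trends on transcript length and GC content removed it was -0.49. All 20 subclone libraries lay below WT5 for 23 of the 35 (65.7%), against 13.7% of all genes tested.

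Slc16a3 encodes MCT4, the transporter that exports lactate from glycolytic cells. It was at 83.6, 72.9, 80.9 and 72 TPM in the 4 WT5 libraries and at 27.2, 21.2, 17.9, 27.3 and 15.1 TPM in the means of subclones 1 to 5. The highest subclone library reached 30.4 TPM, less than every WT5 library, and the difference was -1.77 ± 0.17 (adjusted p = 0.000247). P4ha1, a catalytic subunit of collagen prolyl 4-hydroxylase, was at 206, 186, 210.4 and 202 TPM in WT5 and at 93, 87.6, 84.9, 88.4 and 86.5 TPM in the subclones. The subclones were almost alike in this gene, and its difference of -1.04 ± 0.04 (adjusted p = 1.21e-05) had the smallest SE of the 195 called genes. Ankrd37, an ankyrin repeat gene induced by hypoxia, was at 42.9, 36.9, 42.8 and 37.5 TPM in WT5 and at 18.6, 14.1, 17.7, 24.8 and 11.4 TPM in the subclones, a difference of -1.18 ± 0.20 (adjusted p = 0.00225). It overlaps Lrp2bp and Ufsp2 on the other strand, whose reads cannot be told apart if strand was not used in counting.

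Most other members fell by less than 2-fold, and the following were chosen after their values were seen. Vegfa, the angiogenic growth factor, was at 72.9, 65.1, 73.3 and 62.5 TPM in WT5 and at 33.8, 29.9, 31.2, 35 and 30.9 TPM in the subclones, with no overlap and a difference of -0.99 ± 0.07 (adjusted p = 0.0001). Ldha, which turns pyruvate into lactate, was at 1272, 1095, 1216 and 1179.9 TPM in WT5 and 556, 535, 537, 633 and 407 TPM in the subclones (-0.94, adjusted p = 0.000616). Pfkl, the liver type of phosphofructokinase, went from 197 ± 7.9 to 93 ± 12.1 TPM (-0.94), Pgk1 from 745 ± 57.8 to 358 ± 46.7 TPM (-0.86), the mitophagy receptor Bnip3 from 166 ± 17.7 to 77.7 ± 14.4 TPM (-0.98) and the glucose transporter gene Slc2a1 from 136 ± 5.46 to 79.4 ± 15.4 TPM (-0.66, means ± SD). On the scale of log2(TPM) without z-scores, Vegfa, Ldha, Pfkl, Bnip3 and Pgk1 were past 2-fold, with -1.09, -1.17, -1.10, -1.12 and -1.07. Subclone 5 was the lowest of the 5 in Ldha, Pfkl, Bnip3 and Pgk1. Ndrg1 was the 1 member higher at an adjusted p-value below 0.01, from 118 ± 0.905 to 153 ± 20.1 TPM, a difference of 0.51 ± 0.08 (adjusted p = 0.00198). Neither without z-scores, where it was at 0.37, nor with the unequal-variance test did it or any other member pass this threshold on the higher side. In polyclonal WT cells, Ldha was at a mean of 873, P4ha1 at 96.5, Vegfa at 16 and Slc16a3 at 1.92 TPM, below WT5, while Bnip3 was at 210.4, Pfkl at 203 and Slc2a1 at 144 TPM, above the WT5 mean.

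The core of the hypoxia response element is ACGTG or GCGTG, and it was searched on both strands in the 250 bases before the RefSeq start of each gene (GRCm38.p6), with the motifs chosen after the values were seen. It occurred in 58% of the 9531 tested genes with a promoter in the table, in 24 of the 33 such members of the glycolysis and hypoxia list (72.7%), in 40 of 88 lower genes (45.5%) and in 21 of 49 higher genes (42.9%). The 3 called members of the list are shown because their falls lead this group, on the gene's strand, with the matches in capitals (CACGT and CACGC are matches on the opposite strand).
Slc16a3 (chr11:120948817-120949066, plus strand): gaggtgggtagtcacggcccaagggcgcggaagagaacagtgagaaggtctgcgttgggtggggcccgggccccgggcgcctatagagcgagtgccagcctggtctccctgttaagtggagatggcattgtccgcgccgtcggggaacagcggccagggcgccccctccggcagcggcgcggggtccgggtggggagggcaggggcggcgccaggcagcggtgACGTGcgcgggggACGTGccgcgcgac
P4ha1 (chr10:59323046-59323295, plus strand): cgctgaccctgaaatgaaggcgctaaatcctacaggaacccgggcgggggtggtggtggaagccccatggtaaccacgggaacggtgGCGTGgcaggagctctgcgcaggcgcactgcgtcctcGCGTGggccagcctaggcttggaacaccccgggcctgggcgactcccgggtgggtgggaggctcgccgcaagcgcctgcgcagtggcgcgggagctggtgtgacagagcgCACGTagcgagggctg
Ankrd37 (chr8:45999851-46000100, minus strand): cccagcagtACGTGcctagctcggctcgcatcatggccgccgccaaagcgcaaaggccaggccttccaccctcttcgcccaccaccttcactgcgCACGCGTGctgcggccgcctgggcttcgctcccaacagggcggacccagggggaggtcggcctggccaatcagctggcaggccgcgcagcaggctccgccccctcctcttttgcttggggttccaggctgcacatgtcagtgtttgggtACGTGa
The window held 2 matches for Slc16a3, 3 for P4ha1 and 4 for Ankrd37, of which those in CACGCGTG overlap. The matches are letters in these windows and are no measure of binding.

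A few mesenchymal genes and genes of the extracellular matrix were called lower, while most members of their lists were not called. Of 21 tested cadherins and epithelial-mesenchymal transition factors, 4 were called lower and 1 higher. With any size, 7 were lower and 2 higher at an adjusted p-value below 0.01 (12% and 11.4% of all genes tested). The median of the list was -0.15. Vim, the intermediate filament protein of mesenchymal cells, was at 18.2, 12.3, 19.3 and 17.6 TPM in WT5 and at 5.7, 4.75, 3.04, 2.47 and 6.14 TPM in the subclones. The highest of the 20 subclone libraries was at 7.12 TPM, and the difference was -1.99 ± 0.30 (adjusted p = 0.00145). Fn1, encoding fibronectin and chosen with Snai1 after their values were seen, was at 244, 235, 247 and 212 TPM in WT5 and at 110.1, 142, 84.6, 83.1 and 103 TPM in the subclones, a difference of -1.04 ± 0.15 (adjusted p = 0.00112). Tagln, an actin-binding protein of smooth muscle, was at 2.66, 2.5, 3.74 and 3.25 TPM in WT5 and at 1.01, 2.03, 0.955, 0.963 and 0.90 TPM in the subclones (-1.5 ± 0.26, adjusted p = 0.00241), with subclone 2 apart from the other 4. Snai1, a transcription factor that represses E-cadherin, was scarce, at 0.762 ± 0.135 TPM in WT5 and 0.368 ± 0.0451 TPM in the subclones (-1.2 ± 0.14, adjusted p = 0.000544). Its libraries overlapped, reaching 0.61 TPM in the subclones and going down to 0.59 TPM in WT5. Cdh1, E-cadherin itself, was at 97.6 ± 1.55 and 82 ± 13 TPM (-0.15, adjusted p = 0.337). The gene that rose was Cdh17, encoding liver-intestine cadherin, at 1.6, 2.05, 1.58 and 1.9 TPM in WT5 and at 5.38, 5.48, 7.26, 4.79 and 3.04 TPM in the subclones (1.45 ± 0.22, adjusted p = 0.00142). In polyclonal WT cells Vim was at a mean of 1.67, Fn1 at 88.9 and Tagln at 3.16 TPM.

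Of 37 tested laminins, integrins and other basement membrane genes 2 were called, both integrin subunits and both lower. Itgb3, the beta subunit of the vitronectin receptor, was at 1.4, 1.36, 1.39 and 1.62 TPM in WT5 and at 0.435, 0.527, 0.393, 0.297 and 0.347 TPM in the subclones, a difference of -1.96 ± 0.17 (adjusted p = 0.000165). Itga5, the alpha subunit of the fibronectin receptor, was at 8.73, 9.0, 9.75 and 8.55 TPM in WT5 and at 4.05, 4.29, 3.37, 3.24 and 5.22 TPM in the subclones (-1.18 ± 0.15, adjusted p = 0.000632). The groups did not overlap in either gene. Among 35 metalloproteases and their inhibitors 8 were lower and 0 higher at an adjusted p-value below 0.01 by limma. The shares of all genes tested were 12% and 11.4%. In this list 3 were higher at an unadjusted p-value below 0.05 and 0 by the unequal-variance test, and 3 were called. Adam12 went from 1.14 ± 0.282 to 0.308 ± 0.126 TPM (-2.11), Adamts16 from 0.877 ± 0.0538 to 0.344 ± 0.158 TPM (-1.56) and Mmp28 from 0.708 ± 0.172 to 0.295 ± 0.0805 TPM (-1.42), each without overlap. Adam12 was lowest in subclone 5, at 0.105 TPM. Of 18 collagens, Col16a1 was called, from 4.45 ± 0.794 to 2.46 ± 0.545 TPM (-1.0), and its libraries overlapped, from 0.80 to 6.85 TPM in the subclones.

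**Figure D2:**
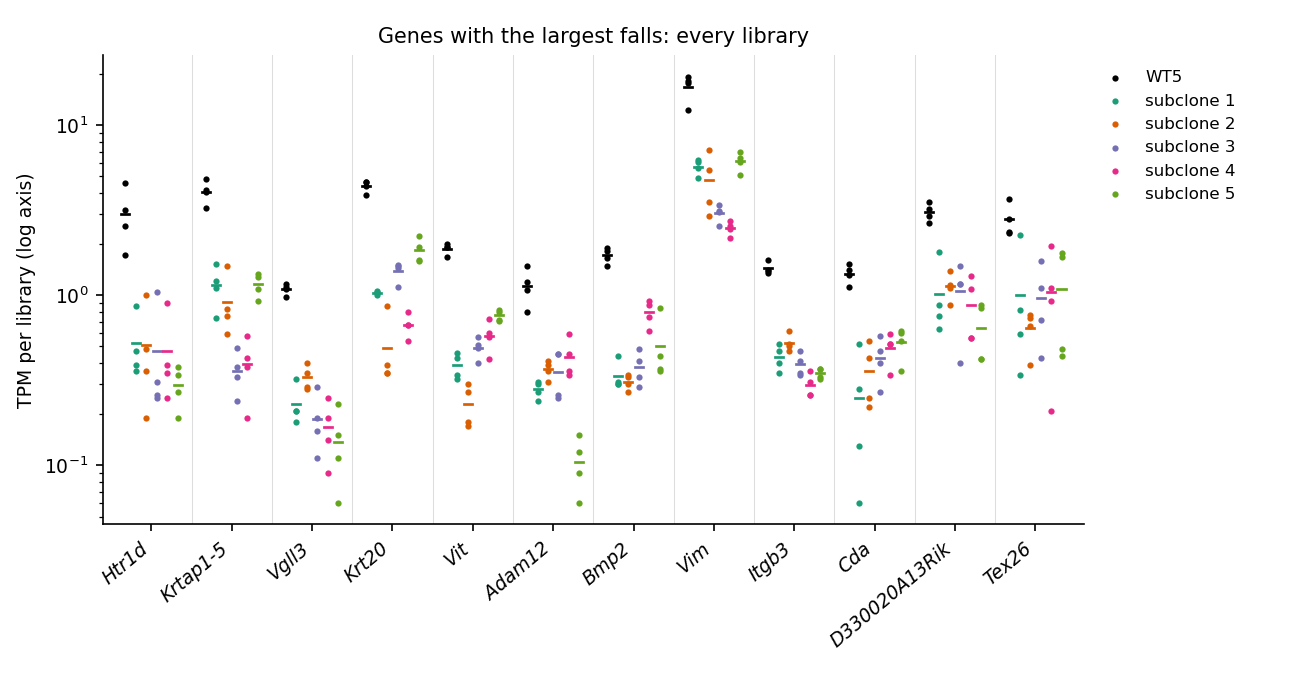
TPM (log axis) of the 12 lower genes with the largest differences among those with a mean of at least 1 TPM in a group and no overlap of libraries. Points are single libraries and bars the mean of the 4 libraries of a line, WT5 in black and subclones 1 to 5 in colour. Every WT5 library lies above all 20 subclone libraries in each gene, and Vim is the most abundant of the 12.

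Most keratins were lower in the subclones. Of 11 tested keratins 10 had a difference below 0 and 2 were called. At an adjusted p-value below 0.01, 7 were lower, against 12% of all genes tested. The median was -0.71 with z-scores, -0.85 without and -0.75 after rescaling, and it lay between -0.79 and -0.70 in the 5 subclones. Krt20, a keratin of differentiated gastrointestinal and urothelial epithelium, was at 3.87, 4.65, 4.38 and 4.61 TPM in WT5 and at 1.04, 0.49, 1.39, 0.67 and 1.84 TPM in the subclones, a difference of -2.22 ± 0.38 (adjusted p = 0.00258). Krt17 was scarce, at 0.845 ± 0.0839 TPM in WT5 and 0.409 ± 0.151 TPM in the subclones (-1.35), and its libraries overlapped. The abundant keratins of simple epithelium were chosen after their values were seen and fell by less than 2-fold with z-scores. Krt8 was at 1048, 984, 963 and 1026 TPM in WT5 and at 593, 620.4, 568, 495 and 527 TPM in the subclones (-0.62 ± 0.06, adjusted p = 0.000285), and Krt19 was at 362, 323, 344 and 346 and 188, 159, 170.1, 155 and 180.3 TPM (-0.84 ± 0.06, adjusted p = 0.00012). Krt7 went from 128 ± 10.6 to 66.7 ± 3.79 TPM (-0.81), Krt18 from 957 ± 30.3 to 692 ± 47.1 TPM (-0.25) and Krt80 from 15.5 ± 0.744 to 7.64 ± 1.11 TPM (-0.998). Without z-scores Krt19 and Krt80 were just past 2-fold, at -1.02 and -1.04. In polyclonal WT cells the means of Krt8, Krt19 and Krt7 were 359.9, 178 and 199 TPM.

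Targets and partners of YAP and TAZ were lower in part. Of 27 tested members 12 were lower at an adjusted p-value below 0.01 and 0 were higher by limma, against 12% and 11.4% of all genes tested, with a median of -0.29. At an unadjusted p-value below 0.05, 17 were lower and 1 higher, and the unequal-variance test with adjustment gave 7 and 0. Without z-scores 15 were lower, and after rescaling 9. Vgll3, a cofactor of the TEAD transcription factors, was the 1 called, at 1.17, 1.09, 1.12 and 0.98 TPM in WT5 and at 0.23, 0.33, 0.188, 0.168 and 0.138 TPM in the subclones, a difference of -2.6 ± 0.26 (adjusted p = 0.000282). The most abundant target that fell, Ankrd1 (chosen after its values were seen), was at 446, 425, 453 and 437 TPM in WT5 and at 221, 261, 199, 247 and 241 TPM in the subclones (-0.74 ± 0.08, adjusted p = 0.000345). Yap1 itself was at 55 ± 1.15 and 51.7 ± 1.83 TPM (0.01, adjusted p = 0.905). The TEAD letters GGAATG occurred on either strand in 10.4% of all 9531 promoters and in 10 of the 88 of lower genes (11.4%).

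Immediate early genes and the feedback genes of ERK were lower in part. Of 29 immediate early genes 10 were lower and 0 higher at an adjusted p-value below 0.01 by limma (median -0.38). Of 18 ERK feedback genes 7 were lower and 0 higher (median -0.38). The shares of all genes tested were 12% lower and 11.4% higher. No member of either list was higher at an unadjusted p-value below 0.05, with 13 and 8 lower, and the unequal-variance test with adjustment gave 2 and 1 lower and 0 higher. The lists share Dusp5, Dusp6, Ier3 and Fosl1 among these genes. The immediate early genes varied between subclones, with medians of -0.02, -0.60, -0.76, -0.11 and -0.59 in subclones 1 to 5. Dusp1, a phosphatase that inactivates MAP kinases, was at 156, 162, 151 and 134 TPM in WT5 and at 77.1, 49.4, 27.8, 48.6 and 50.1 TPM in the subclones, a difference of -1.53 ± 0.24 (adjusted p = 0.00176). Its libraries did not overlap, and subclone 1 stayed closest to WT5. The annotated gene overlaps Ergic1 on the other strand. Jun and Dusp6, chosen after their values were seen, were also closest to WT5 in subclone 1 and lowest in subclone 3, with Jun at 139, 158, 142 and 129.6 TPM in WT5 and 108, 66.9, 54.7, 73.4 and 67.2 TPM in the subclones (-0.85) and Dusp6 at 209, 212, 207 and 183 and 146, 103, 66.4, 88.1 and 103 TPM (-0.91). Etv4, an ETS factor induced by ERK, went from 3.67 ± 0.789 to 1.63 ± 0.461 TPM (-1.27), and its libraries overlapped. Sgk1, a kinase induced by serum, aldosterone and osmotic stress that retains epithelial sodium channels at the surface, was at 59.2, 66.1, 75.2 and 54.1 TPM in WT5 and at 42.4, 26.7, 18.4, 30.3 and 19.9 TPM in the subclones (-1.19 ± 0.22, adjusted p = 0.00384), with overlap. The cAMP response element TGACGTCA was searched on both strands and occurred in 2.83% of all promoters and in that of Dusp1 once, shown here in capitals because Dusp1 is the most abundant called gene of the group (chr17:26508473-26508722, minus strand).
Dusp1: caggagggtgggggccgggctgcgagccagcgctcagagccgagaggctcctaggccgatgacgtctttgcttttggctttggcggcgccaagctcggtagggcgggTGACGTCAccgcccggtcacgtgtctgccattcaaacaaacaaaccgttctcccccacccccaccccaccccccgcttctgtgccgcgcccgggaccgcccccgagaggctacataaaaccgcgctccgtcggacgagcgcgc
The element occurred in 4 of 88 lower genes (4.55%) and 0 of 49 higher genes. AP-1 letters (TGAGTCA or TGACTCA) were found in 2.94% of all promoters, in 6 of the lower (6.82%) and in 4 of the higher genes (8.16%).

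In the integrated stress response, in which ATF4 raises amino acid synthesis and transport genes, 9 of 40 tested genes were lower and 1 higher at an adjusted p-value below 0.01, against 12% and 11.4% of all genes tested. Without z-scores 19 were lower and 0 higher, and with the unequal-variance test 5 were lower and 1 higher. The shares of all genes tested were not counted for either. Fgf21, a secreted stress hormone, was called, at 4.91, 3.97, 4.21 and 5.19 TPM in WT5 and at 1.24, 2.4, 1.74, 1.16 and 1.76 TPM in the subclones (-1.57 ± 0.23, adjusted p = 0.00121). Among 22 amino acid transporters the neutral amino acid carrier gene Slc43a2 was called, from 4.09 ± 0.846 to 1.71 ± 0.31 TPM (-1.3). Ddit4 and Chac1, chosen after their values were seen, went from 107 ± 2.93 to 54.1 ± 10.2 TPM (-0.87) and from 73 ± 1.58 to 44.7 ± 5.12 TPM (-0.61). In cholesterol synthesis 9 of 25 genes were lower and 0 higher by limma (3 higher at an unadjusted p-value below 0.05, 0 by the unequal-variance test), with none called and a median of -0.16.

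Secreted ligands and their antagonists moved in both directions. In TGF-beta and BMP signalling 3 of 42 tested genes were called, all lower. Bmp2, a bone morphogenetic protein, was at 1.82, 1.49, 1.89 and 1.66 TPM in WT5 and at 0.338, 0.31, 0.378, 0.792 and 0.502 TPM in the subclones (-2.06 ± 0.25, adjusted p = 0.000565), and was listed at 0 in all 4 polyclonal libraries. Fst, the activin antagonist follistatin, was at 29.9, 27.9, 31.4 and 28.6 TPM in WT5 and at 11.2, 17, 8.14, 9.21 and 12.5 TPM in the subclones (-1.33 ± 0.20, adjusted p = 0.00131). Inhba, a subunit of activin A, was at 3.71 ± 0.722 and 1.46 ± 0.388 TPM (-1.4). Of 25 growth factor genes, 3 were called lower and 1 higher. Pdgfc fell from 4.01 ± 0.376 to 1.92 ± 0.355 TPM (-1.11) and Bdnf, chosen after its values were seen, from 6.96 ± 0.378 to 3.3 ± 0.73 TPM (-1.1), whereas Fgf2 rose from 0.10 ± 0.0183 to 0.255 ± 0.0459 TPM (1.12). Fgf2 overlaps Nudt6 on the other strand. Of 40 Wnt pathway genes 2 were called lower and 1 higher. Wnt16 was at 22.9, 23.1, 25.3 and 24.5 TPM in WT5 and at 67.2, 62.1, 59, 50.2 and 36.1 TPM in the subclones (1.23 ± 0.16, adjusted p = 0.000723), without overlap. Its fellow pathway genes, the receptor gene Fzd9 and the antagonist gene Dkk2, were both under 1 TPM in all lines and differed by -1.61 and -1.58. The axon guidance ligand Efna3 was at 7.97, 10.2, 8.24 and 8.96 TPM in WT5 and at 2.73, 4.22, 3.57, 4.68 and 2.33 TPM in the subclones (-1.37 ± 0.19, adjusted p = 0.00111).

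Beyond the lists, the largest fall was that of Htr1d, a serotonin receptor coupled to Gi. It was at 2.57, 3.17, 4.58 and 1.73 TPM in WT5 and at 0.522, 0.507, 0.468, 0.472 and 0.295 TPM in the subclones, a difference of -2.9 ± 0.26 (adjusted p = 0.000192), with subclone libraries up to 1.05 TPM. Krtap1-5, a keratin-associated protein of hair, went from 4.07 ± 0.635 to 0.795 ± 0.394 TPM (-2.61). Vit, which encodes the matrix protein vitrin, went from 1.88 ± 0.139 to 0.49 ± 0.20 TPM (-2.12), and Cda, cytidine deaminase, from 1.34 ± 0.168 to 0.412 ± 0.112 TPM (-1.94). D330020A13Rik went from 3.08 ± 0.378 to 0.944 ± 0.193 TPM (-1.86) and Tex26 from 2.79 ± 0.637 to 0.948 ± 0.179 TPM (-1.85), and each lies within or beside another annotated gene (B4galnt3 on the other strand and 4933425D22Rik on the same strand). Ano1, a calcium-activated chloride channel that takes part in cyst growth and is listed among imprinted genes, was at 9.16, 7.95, 9.76 and 9.02 TPM in WT5 and at 3.21, 2.21, 4.44, 4.16 and 3.2 TPM in the subclones (-1.41 ± 0.19, adjusted p = 0.000815). It was at a mean of 0.27 TPM in polyclonal WT cells. The scarce genes Gja4 (-1.35), Kcna7 (-1.7), Hist2h4 (-1.76) and Zfp9 (-2.18) were called lower at levels under 1 TPM. Acta1, skeletal muscle actin, was called at -1.0, just past 2-fold, and its libraries overlapped.

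The largest rise was that of Usp50 (chr2:126709096-126783470, minus strand, GRCm38), a gene of the ubiquitin-specific protease family. It was at 2.05, 0.38, 2.81 and 1.82 TPM in WT5 and at 21.5, 19.1, 22.7, 18 and 10.2 TPM in the subclones, a difference of 3.55 ± 0.55 (adjusted p = 0.00161), and at a mean of 82.5 TPM in polyclonal WT cells. It overlaps Usp8 on the other strand and Gm10774 on the same strand. Usp50 also shares 16% of the 50-base stretches of its longest transcript with other genes, so its TPM can depend on how reads were assigned. Usp8 was at 46.7 ± 2.14 TPM in WT5 and 42.5 ± 2.56 TPM in the subclones (-0.05, adjusted p = 0.467). The order of Usp50 over polyclonal WT cells, subclones and WT5 was also the order of the share of TPM in pseudogenes, at medians of 13.6%, 5.62% and 2.66%, and the part of read assignment was not tested.

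Inmt, which methylates indoleamines, was at 1.31, 1.41, 1.45 and 0.95 TPM in WT5 and at 6.1, 5.25, 11.1, 20.8 and 4.97 TPM in the subclones (2.63 ± 0.42, adjusted p = 0.00183), highest in subclone 4. Ptgds, prostaglandin D2 synthase, was at 0.91, 1.22, 1.25 and 0.61 TPM in WT5 and at 3.56, 5.43, 5.18, 5.93 and 7.45 TPM in the subclones (2.41 ± 0.26, adjusted p = 0.000376). Sult1c2, a cytosolic sulfotransferase, was at 2.92, 4.94, 4.56 and 5.06 TPM in WT5 and at 16.2, 14.4, 18.4, 22.6 and 13.5 TPM in the subclones (1.97 ± 0.19, adjusted p = 0.000256). Bdh2, a dehydrogenase of ketone body and siderophore metabolism, was the most abundant of the 12 leading genes, at 14.3, 16.4, 16.4 and 15.7 TPM in WT5 and at 57.8, 28.9, 71.2, 39.2 and 38.2 TPM in the subclones (1.56 ± 0.24, adjusted p = 0.00161). Each of these genes was higher in all 20 subclone libraries than in any WT5 library. Ppargc1a, the coactivator PGC-1 alpha that drives mitochondrial genes, was at 1.11, 0.98, 1.32 and 0.99 TPM in WT5 and at 3.86, 3.09, 3.39, 3.73 and 3.6 TPM in the subclones, a difference of 1.62 ± 0.10 (adjusted p = 6.74e-05) in which the subclones hardly differed. Subunits of the respiratory chain did not move as one under every scaling. Of 77 tested, 27 were higher and 5 lower with z-scores (median 0.12), against 11.4% and 12% of all genes tested. Without z-scores 10 were higher and 17 lower (median -0.05), and after rescaling 20 were higher and 9 lower (median 0.05).

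Kitl, the ligand of the receptor tyrosine kinase Kit, was at 1.4, 1.79, 1.88 and 1.59 TPM in WT5 and at 7.14, 5.93, 6.22, 12.7 and 4.17 TPM in the subclones (1.98 ± 0.27, adjusted p = 0.000911), highest in subclone 4. Ccl5, a chemokine that attracts T cells, was at 8.05, 7.52, 7.7 and 8.39 TPM in WT5 and at 22.5, 21.7, 17.4, 27.2 and 40.1 TPM in the subclones (1.67 ± 0.22, adjusted p = 0.00082), highest in subclone 5. Wfdc15b, a member of the whey acidic protein family, went from 1.91 ± 0.776 to 7.06 ± 2.43 TPM (1.86). Fam184b went from 0.32 ± 0.0583 to 1.68 ± 0.825 TPM (2.11), Cdkl1, a kinase linked to cilia, from 5.01 ± 0.19 to 14.8 ± 6.05 TPM (1.47) and Wipf3, an actin regulator, from 0.537 ± 0.083 to 1.72 ± 0.797 TPM (1.47). The libraries of these 6 genes did not overlap between groups.

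**Figure D3:**
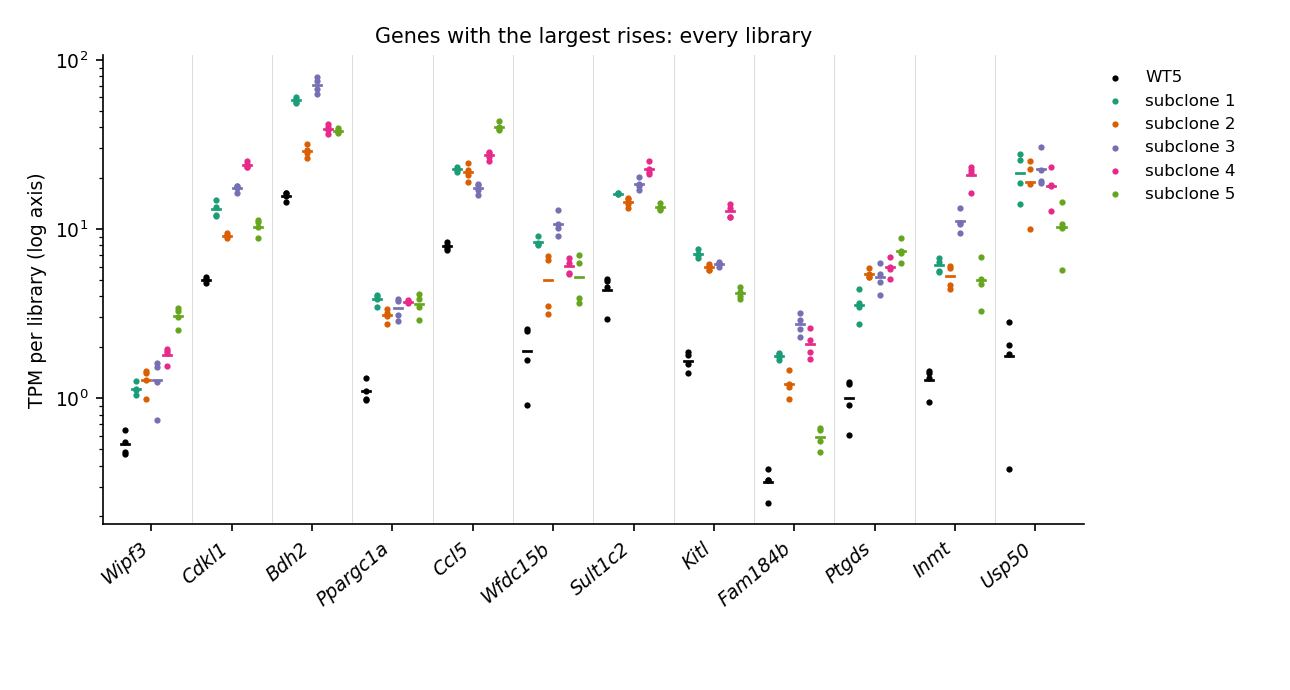
TPM (log axis) of the 12 higher genes with the largest differences, chosen and drawn as for the lower genes. Every subclone library lies above all 4 WT5 libraries in each gene, and in Inmt, Kitl and Cdkl1 subclone 4 is the highest line.

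Interferon response genes were higher in part. Of 39 tested, 14 were higher and 1, Irf7, lower at an adjusted p-value below 0.01 (11.4% and 12% of all genes tested) and 8 higher and 1 lower with the unequal-variance test. The median was 0.22 (0.13 without z-scores, with 9 higher and 2 lower). Rsad2, the antiviral enzyme viperin, was called, at 0.19, 0.35, 0.20 and 0.26 TPM in WT5 and at 0.70, 0.76, 0.655, 1.0 and 0.907 TPM in the subclones (1.57 ± 0.19, adjusted p = 0.000612). Nlrc5, the transactivator of MHC class I genes, was also scarce, at 0.13, 0.35, 0.39 and 0.12 TPM in WT5 and 0.943, 0.885, 1.15, 0.642 and 0.595 TPM in the subclones (1.75 ± 0.38, adjusted p = 0.00708). The 22 genes of MHC class I presentation had a median of -0.09, with 4 higher and 4 lower. Of 29 chemokine, cytokine and acute phase genes 2 were called, Ccl5 and the scarce Ccl28 (from 0.182 ± 0.0532 to 0.447 ± 0.119 TPM, 1.13), and 5 were higher and 3 lower with any size.

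Few genes of the collecting duct were called. Of 21 tested water, sodium and urea transport genes 5 were higher and 1, Sgk1, lower at an adjusted p-value below 0.01. With z-scores, 11.4% of all genes tested were higher and 12% lower at this threshold. Nr3c2, the mineralocorticoid receptor, chosen after its values were seen, was at 1.4, 1.65, 1.36 and 1.46 TPM in WT5 and at 2.98, 2.3, 3.34, 3.05 and 2.88 TPM in the subclones (0.92 ± 0.10, adjusted p = 0.000433). Cldn8, a claudin of the collecting duct that limits sodium leak and the 1 called gene of 21 tight junction genes, was at 54.5, 58.9, 56 and 51.3 TPM in WT5 and at 137, 81.1, 140.3, 119 and 121 TPM in the subclones (1.2 ± 0.15, adjusted p = 0.000735), with a mean of 2.11 TPM in polyclonal WT cells. Of 19 subunits of the vacuolar proton pump 9 were higher and 1 lower (median 0.18), but 4 and 2 without z-scores. The subunit of intercalated cells, Atp6v0a4, was called, at 0.50, 0.42, 0.51 and 0.47 TPM in WT5 and at 1.35, 0.887, 1.44, 1.57 and 1.38 TPM in the subclones (1.35 ± 0.16, adjusted p = 0.000474). Of 4 intercalated cell markers, Atp6v1g3 and Foxi1 were at 0 in all libraries. Slc4a1 was at a mean of 0 TPM in WT5 and 0.0005 TPM in the subclones. Slc26a4 was scarce, at means of 0.1025 and 0.289 TPM, and was not called (1.21, adjusted p = 0.0832). Gabarapl1, an autophagosome protein, was at 93.9, 102, 97.9 and 109 TPM in WT5 and at 214, 174, 220.2, 266 and 147 TPM in the subclones (1.13 ± 0.16, adjusted p = 0.00108), and without z-scores it was past the adjusted p-value but not past 2-fold. Of 36 lysosome and autophagy genes 15 were higher and 4 lower with z-scores, and 5 and 7 without. The potassium channel gene Kcnj2 went from 0.237 ± 0.0574 to 0.792 ± 0.37 TPM (1.52), and the germline gene Tdrd1 was called at a mean of 0.0375 TPM in WT5 and 0.112 TPM in the subclones.

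**Figure D4:**
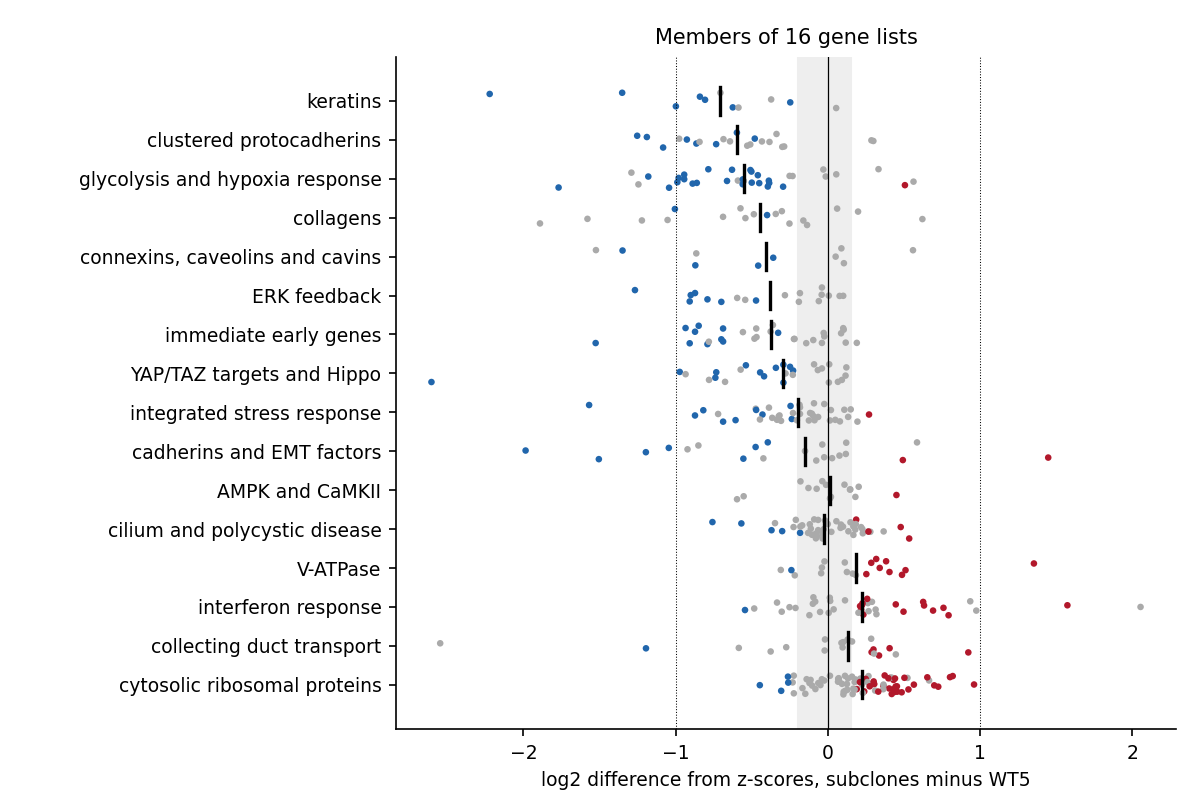
Log2 difference from z-scores of every tested member of 16 gene lists. Red and blue points are members at an adjusted p-value below 0.01, grey points are the others, black bars are list medians and the grey band spans the middle 50% of all genes tested. Keratins, protocadherins and the glycolysis and hypoxia genes have the lowest medians (-0.71, -0.60 and -0.55), and the AMPK and cilium lists lie at the median of all genes.

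The direction of ribosomal protein genes rested on the scaling. Of 82 tested, 33 were higher and 4 lower with z-scores (median 0.23), against 11.4% and 12% of all genes tested. Without z-scores 12 were higher and 22 lower (median -0.03), and after rescaling 21 were higher and 13 lower (median 0.07). Genes of the proteasome, heat shock, the cell cycle and mitochondrial ribosomes had medians between -0.06 and 0.05 with z-scores and no called member. Without z-scores these medians were -0.16, -0.15, -0.12 and -0.14, against -0.09 over all genes tested. Without z-scores 15, 1, 16 and 24 of the 37, 17, 66 and 77 members were lower at an adjusted p-value below 0.01, and 1, 0, 4 and 1 were higher. The share of all genes tested was not counted on this scale, so these counts cannot be set against it. After rescaling the medians were -0.06, -0.05, -0.02 and -0.04. Clustered protocadherins, on chromosome 18, had a median of -0.60 with 8 of 21 lower at an adjusted p-value below 0.01 (12% of all genes tested). However, Pcdhgb2 and Pcdhga4 share 54.6% and 44.8% of their 50-base stretches with other genes and Pcdhb21 shares 11.3%, so single members are uncertain. Among all 195 called genes, 19 shared over 10% of these stretches with another gene, while 90.7% of all genes tested shared 10% or less.

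Of the 64 called genes named by rule, 48 were called whichever single line or library was left out, and the other 16 were not. Fn1, Snai1 and Bdnf, also called but chosen after their values were seen, are not in this count. Adam12 was not called without WT5 library 1, 3 or 4 (adjusted p = 0.0121 to 0.0138). Dkk2 was not called without WT5 library 3 (adjusted p = 0.0101). Etv4 was not called without WT5 library 1, 2 or 3 (adjusted p = 0.0122 to 0.0134). Fam184b was not called without WT5 library 2, 3 or 4 or subclone 1 (adjusted p = 0.0111 to 0.014). Kcnj2 was not called without WT5 library 1, 3 or 4 or subclone 1 or 2 (adjusted p = 0.0128 to 0.0171). Krt17 was not called without WT5 library 1, 2, 3 or 4 or subclone 3 or 4 or library 2 of subclone 2 (adjusted p = 0.0127 to 0.0187). Nlrc5 was not called without WT5 library 1 or 4 or subclone 1, 2, 3, 4 or 5 (adjusted p = 0.0102 to 0.0209). Sgk1 was not called without WT5 library 1, 2 or 3 (adjusted p = 0.0112 to 0.0134). Tdrd1 was not called without WT5 library 2 or 3 or subclone 1, 2, 3, 4 or 5 or library 1 of subclone 2 (adjusted p = 0.0104 to 0.022). Wfdc15b was not called without WT5 library 2 or subclone 1 or 3 (adjusted p = 0.0104 to 0.0141). Wipf3 was not called without WT5 library 2, 3 or 4 or subclone 4 (adjusted p = 0.0118 to 0.0171). The call of Acta1 was lost without WT5 library 1, 2, 3 or 4 or subclone 1, 3 or 5 or 1 of 10 single subclone libraries, library 3 of subclone 1, 4 of subclone 1, 2 of subclone 2, 3 of subclone 2, 1 of subclone 3, 3 of subclone 3, 3 of subclone 4, 4 of subclone 4, 2 of subclone 5 or 4 of subclone 5, with a difference of 0.878 to 1.08 in size and adjusted p = 0.00573 to 0.0214. The call of Ccl28 was lost without WT5 library 1, 2 or 4 or subclone 2, 3, 4 or 5 or library 2 of subclone 1, with a difference of 0.932 to 1.21 in size and adjusted p = 0.0109 to 0.0204. The call of Col16a1 was lost without WT5 library 1, 2 or 3 or subclone 3, 4 or 5 or 1 of 8 single subclone libraries, library 4 of subclone 1, 2 of subclone 2, 1 of subclone 3, 2 of subclone 3, 3 of subclone 3, 4 of subclone 3, 3 of subclone 4 or 1 of subclone 5, with a difference of 0.897 to 1.13 in size and adjusted p = 0.00404 to 0.0136. The call of Pcdhga4 was lost without WT5 library 1, 2, 3 or 4 or subclone 1, 2, 3 or 5, with a difference of 0.969 to 1.13 in size and adjusted p = 0.01 to 0.0183. The call of Pdgfc was lost without subclone 4, with a difference of 0.974 in size and adjusted p = 0.000596.

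None of 7 genes of the polycystins, YAP, AMPK, CaMKII delta and PERK was called. Pkd1, mutated in polycystic kidney disease, was at 8.13, 8.9, 9.54 and 8.07 TPM in WT5 and at 7.68, 7.82, 7.58, 6.13 and 8.39 TPM in the subclones (-0.21 ± 0.10, adjusted p = 0.109), and Pkd2 was at 36.1 ± 1.49 and 36.8 ± 2.66 TPM (0.10 ± 0.06, adjusted p = 0.203). Eif2ak3, encoding the stress kinase PERK, was at 38.6, 38.8, 41.7 and 44.1 TPM in WT5 and at 45.7, 40.5, 40.2, 22.7 and 33.7 TPM in the subclones (-0.12 ± 0.18, adjusted p = 0.636), with subclone 4 the lowest. Camk2d was at 44.6 ± 3.63 and 49.1 ± 5.12 TPM (0.20 ± 0.07, adjusted p = 0.0555). Of the catalytic subunits of AMPK, Prkaa1 was at 39.6 ± 1.05 and 40.3 ± 1.21 TPM (0.11 ± 0.03, adjusted p = 0.0316), and Prkaa2 was at 4.43, 4.84, 5.04 and 4.79 TPM in WT5 and at 6.12, 6.22, 6.04, 7.49 and 7.06 TPM in the subclones (0.45 ± 0.07, adjusted p = 0.00195), past the adjusted p-value at less than 2-fold. Of 47 genes of cilia and polycystic kidney disease 4 were higher and 5 lower at an adjusted p-value below 0.01, with a median of -0.03. The shares of all genes tested were 11.4% higher and 12% lower.

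GC content moved with the differences. From the lowest to the highest quintile of transcript GC content, the median difference was 0.11, 0.02, -0.03, -0.08 and -0.14, and the slope had the same sign in each of the 5 subclones. Genes called higher numbered 23, 17, 11, 10 and 4 over these quintiles and genes called lower 9, 11, 23, 31 and 56. The median GC content was 46.8% for the higher and 54.3% for the lower genes, against 49.97% for all genes tested. With the trends on length and GC content removed, 60 genes were higher and 103 lower, among them 54 of the 65 and 97 of the 130. The scalings also parted by level: in the lowest quintile of WT5 level (up to 5.59 TPM) the median difference was -0.05 with z-scores, 0.01 without and 0.11 after rescaling, and in the highest quintile (from 74.8 TPM) it was 0.00, -0.14 and -0.04.

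**Figure D5:**
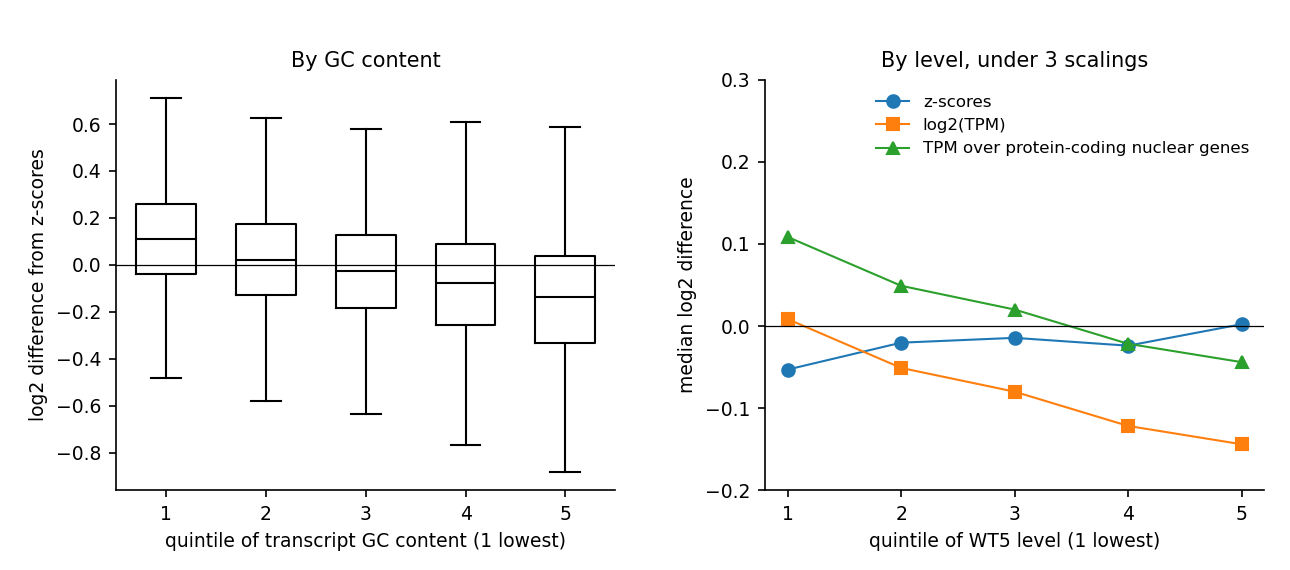
Left, log2 difference from z-scores of the 12100 genes by quintile of transcript GC content, with boxes for the quartiles, lines for the medians and whiskers to 1.5 times the interquartile range. Right, median log2 difference by quintile of WT5 level under the 3 scalings. The medians fall from 0.11 to -0.14 with GC content, and the scalings differ most at the lowest and highest levels.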

How the data were processed

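RNA of 28 libraries was sequenced by the authors, 4 each of polyclonal WT cells, monoclonal WT5 cells and 5 subclones. The deposited values are TPM (length-scaled transcript shares) to 2 decimals, which the authors made by removing adapters and low-quality reads, aligning to GRCm38 with STAR 2.7.3a and quantifying Ensembl release 81 genes with RSEM 1.3.1. CASAVA 1.8 is also named in the submitters' processing notes. Columns of the authors' own comparisons were not used. Depth is not given by TPM. Replicate libraries are termed biological in the methods but technical in a legend, so p-values may measure technical spread only.

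The 2 tables were joined by gene ID, and log2(TPM) was z-scored within each library over 13860 genes above 0 in all 24 libraries, after the study's own scaling. With limma 3.58.1 (R 4.3.3, Python 3.11.15) 5 subclone means were compared with 4 WT5 libraries, two-sided, with Benjamini-Hochberg adjustment over all 13860 genes. Protein-coding nuclear genes were then kept by GENCODE M21 (GRCm38), which held 45143 of 45706 gene IDs, and RefSeq promoters (GRCm38.p6) were matched to 9531 of 12100. In simulated data with 50 changed genes at each size, limma called 86% at log2 differences of 1.5 in size, 94% at -2 and 92% at 2, with 2 false calls. The simulated data held no shift by table, library composition or GC content, so these figures do not cover errors from such shifts.

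Named were the 12 higher and 12 lower called genes with the largest differences, at least 1 TPM in a group and no overlap of libraries, up to 3 called members of each of 51 gene lists, 7 genes of the polycystins and of proteins on the study's blots and genes past the z-score cut-off. A search for genes at 0 in 1 group and at 1 TPM or more in every library of the other found none. The comparison, the lists and the named members were chosen with earlier results of these data known, the chemokine list was corrected after values were seen, and values given beside the rule are marked. The alternatives were other tests, units of replication, scalings, pseudocounts, filters and thresholds, a correction for length and GC content (lowess span 0.3), and leaving out lines or libraries.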

Additional observations from a re-analysis of the deposited data

Results flagged for a closer look

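In 6 of 142 sets of 4 or 5 values tested with Dixon's test at the 95% level, 1 value stood apart, and chance flags about 1 set in 20. Htr1d in subclone 5 had a mean of 0.295 TPM, below the other 4 subclones at 0.4675 to 0.5225 TPM. Itgb3 in WT5 library 4 was at 1.62 TPM, above the other 3 libraries at 1.36 to 1.40 TPM. Fzd9 in WT5 library 3 was at 0.55 TPM, against 0.35 to 0.37 TPM in the other libraries. Adamts16 in subclone 3 had a mean of 0.6175 TPM, and the next highest subclone was at 0.315 TPM. Tagln in subclone 2 had a mean of 2.03 TPM, with the next highest at 1.01 TPM. Yap1 in WT5 library 1 was at 53.27 TPM, below 55.43 to 55.63 TPM in the others.

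Of the 195 genes called between the 5 subclones and WT5, 89 also differed among the subclones themselves (limma F test, adjusted p-value below 0.01), 36 of them higher and 53 lower than WT5. The share among all 12100 genes tested was 27.8%. In these genes the size of the shift differed between subclones.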

How the results depend on the processing

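The count of higher genes (65) was 28 with an unequal-variance test, 108 with the 5 subclone differences against 0, 109 after rescaling TPM to protein-coding nuclear genes, 22 with a pseudocount of 1, 102 at an adjusted p-value below 0.05 and 1375 with no limit on size. The count of lower genes (130) was 73 with the unequal-variance test, 28 with a pseudocount of 1, 63 among genes with a mean of at least 1 TPM and 1458 with no limit on size. The z-score cut-off was passed by 1 gene, by 0 with the unequal-variance test and with genes above 0 in any library, and by 6 among genes of at least 1 TPM. With all 24 libraries as replicates 110 genes were higher and 212 lower, and with the replicate block 110 and 211. Same-numbered libraries of a subclone and WT5 did not deviate together (r from -0.0457 to 0.0637 over 20 pairs), so the numbers do not pair subclones with WT5. Same-numbered libraries of 2 subclones were not compared in this way. Leaving out 1 line or library gave 47 to 68 higher and 94 to 139 lower genes and 0 to 2 past the z-score cut-off. The cause of these changes was not tested. Of 680 values of the 64 called genes named by rule under the alternatives that kept every library, 588 kept their call, 92 lost it and 0 changed sign. By gene, 17 of the 64 were called in every such alternative in which they had a value. With the unequal-variance test, the kind of test the study used, 26 of the 64 were not called, among them Usp50, Inmt, Krt20 and Dusp1. With a pseudocount of 1, 35 were not called. Near 0, Eif2ak3 was at -0.20 without subclone 1 and 0.046 without subclone 4, and Yap1 was at -0.094 without z-scores, -0.00096 with a pseudocount of 1, -0.0103 with genes above 0 in any library, -0.039 after the length and GC correction, 0.023 without subclone 3, -0.00026 without subclone 4 and -0.012 without subclone 5. Prkaa1 was at -0.039 after that correction. The tables are separate batches, and within the first table WT5 and polyclonal WT cells were sequenced at different times. The read length of the subclones was not stated in the sources used here. TPM gives no depth, and values under 1 TPM rest on few reads.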
